A study of Mus musculus with 4 samples.

Results

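IgG plasma cells were the 664 barcodes, among 51841 from CD45+ cells of mouse KPC tumors, whose heavy-chain RNA came mainly from the IgG genes. The members were chosen by these measured values. A barcode was selected when it held 300 to 5000 genes and at most 6% mitochondrial unique molecular identifiers (UMIs, counted RNA molecules), a UMI of at least 1 of the plasma cell markers Mzb1, Derl3, Tnfrsf17 and Sdc1, and at least 20 heavy-chain constant-region UMIs of which at least 70% came from Ighg1, Ighg2b, Ighg2c or Ighg3. The members were 47 in untreated tumors, 32 after the STING agonist ADU-S100, 225 after anti-LTβR, an agonistic antibody to the lymphotoxin-β receptor, and 360 after both agents (combination therapy). KPC is a mouse pancreatic cancer cell line, and here the tumors were grown under the skin of C57BL/6 mice, a syngeneic host with its own immune cells. Tumors of a group were pooled before CD45+ cells were sorted, and each group was 1 library here, so no test between treatments was possible. The study describes another, independent single-cell experiment in mice, which was not analysed here. All intervals are 95% intervals, and they cover counting error only.

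Plasma cells are the antibody-secreting end stage of B cells. When a B cell switches class, its rearranged variable region is joined to another constant gene downstream in the heavy-chain locus, so 1 cell normally makes 1 class and, within IgG, 1 subclass. In C57BL/6 mice the IgG subclasses are IgG1, IgG2b, IgG2c and IgG3. T cell help with interleukin-4 is known for IgG1, and interferon-γ for IgG2c.

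The subclass call rests on constant genes that resemble each other, so the first 120 bases of the first constant exon are given here as the coding strand reads 5′ to 3′. All 4 genes lie on the minus strand of chromosome 12 in GRCm38 with the GENCODE M21 annotation, in the order Ighg3, Ighg1, Ighg2b and Ighg2c from 5′ to 3′, between Ighd upstream and Ighe and Igha downstream. The stretch of Ighg1 is chr12:113330404-113330523, that of Ighg2b chr12:113307814-113307933, that of Ighg2c chr12:113288813-113288932 and that of Ighg3 chr12:113361113-113361232. Capitals mark the 39 positions at which the 4 genes are not all alike.
Ighg1: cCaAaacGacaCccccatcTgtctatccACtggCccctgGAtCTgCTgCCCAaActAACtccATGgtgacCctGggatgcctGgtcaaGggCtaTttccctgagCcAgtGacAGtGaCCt
Ighg2b: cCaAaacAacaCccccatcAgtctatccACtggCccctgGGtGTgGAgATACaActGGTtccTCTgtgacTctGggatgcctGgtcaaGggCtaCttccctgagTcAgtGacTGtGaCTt
Ighg2c: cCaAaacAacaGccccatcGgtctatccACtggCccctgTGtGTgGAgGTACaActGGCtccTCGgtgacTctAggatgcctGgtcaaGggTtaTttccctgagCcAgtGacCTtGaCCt
Ighg3: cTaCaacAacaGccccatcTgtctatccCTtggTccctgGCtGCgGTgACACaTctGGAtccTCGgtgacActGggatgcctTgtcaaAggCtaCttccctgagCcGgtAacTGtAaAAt
Over the whole exon of 291 bases, 88 positions differed among the 4 genes. Ighg1 was identical to Ighg2b at 88.3% of positions, to Ighg2c at 88.0% and to Ighg3 at 79.0%, and the longest run shared by any pair was the 37 bases of Ighg1 and Ighg2b. The files count reads near transcript starts, so many heavy-chain reads also hold variable sequence.

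Library facts that bear on the members were as follows. The 4 libraries held 8730 to 16322 barcodes and 52109958 to 85855398 UMIs, and the median barcode within the limits had 4653 UMIs in the untreated, 3235 in the ADU-S100, 3773 in the anti-LTβR and 2235 in the combination library. Between 32 and 77 barcode sequences within the limits were shared by each pair of libraries, and none of them was a member in both. Barcodes that were not members held a mean of 0.429, 0.222, 0.892 and 2.0 IgG UMIs in that order of libraries. Their medians were 0, 0, 0 and 1. These barcodes include some rich in IgG that missed another part of the rule, so the mean does not measure free RNA alone. Of barcodes with UMIs of at least 3 of 6 T cell receptor complex genes and no plasma cell marker, 0 of 1071, 0 of 506, 1 of 1663 and 1 of 1025 met the heavy-chain part of the rule.

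The members carried the markers that chose them. A Mzb1 UMI, from a gene for an endoplasmic reticulum protein of antibody-secreting cells, was present in 87.2% of untreated, 93.8% of ADU-S100, 97.3% of anti-LTβR and 94.4% of combination members, against 0.274% to 2.06% of T cell barcodes. Those shares do not compare equal depths, since members had a median of 6298 to 20881 UMIs and T cell barcodes 2372 to 4587. Mzb1 stood at 4563, 4595, 4108 and 3689 CPM (UMIs of the gene, scaled to 1e+06 non-immunoglobulin UMIs) in the members of the 4 libraries in the order given above, and at 6.94 to 80.6 CPM in all other barcodes. Sdc1, the surface proteoglycan CD138, was detected in 61.7%, 62.5%, 65.3% and 47.8% of members. Tnfrsf17, the receptor BCMA for plasma cell survival ligands, was detected in 5.83% to 15.6%. These are descriptions, because the markers were part of the rule.

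The heavy-chain thresholds cut few barcodes. Just below the limit of 20 heavy-chain UMIs, with 10 to 19, lay 3, 4, 4 and 11 marker-positive IgG barcodes, and just above it, with 20 to 24, lay 0, 1, 1 and 4. Only the combination library had barcodes with 60% to 70% of heavy-chain UMIs from IgG, and there were 2 of them. The marker part excluded more, with 9, 2, 15 and 59 barcodes that met the heavy-chain part but held no UMI of any of the 4 markers. Those had a median of 1560 to 2572 UMIs in all. A member devoted a median of 39.7% to 40.8% of its UMIs to immunoglobulin genes in every library. Median IgG UMIs per member were 1650, 2252, 2016 and 993, with ranges of 56 to 5224, 20 to 5945, 20 to 6558 and 19 to 6065. Members held a median of 15440, 20881, 12514 and 6298 UMIs in all, so those of the combination library were the shallowest in both measures.

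The first question was how often IgG plasma cells occurred among CD45+ cells under each treatment. They made up 0.604% of barcodes in the untreated library (0.444% to 0.803%), 0.223% after ADU-S100 (0.153% to 0.315%), 1.60% after anti-LTβR (1.40% to 1.82%) and 2.29% after combination therapy (2.07% to 2.54%), and these 4 intervals did not overlap. Relative to untreated, the share after ADU-S100 was 0.370 times as high (0.236 to 0.579), after anti-LTβR 2.65 times (1.94 to 3.63) and after combination therapy 3.79 times (2.80 to 5.14). Combination therapy stood 10.3 times above ADU-S100 (7.16 to 14.7) and 1.43 times above anti-LTβR (1.21 to 1.69). ADU-S100 thus went with a lower share when given alone and with a higher share when anti-LTβR was also given. The share of a library also moves with its other cells. When all barcodes with at least 2 neutrophil genes were left out, members included, 26 and 46 members remained and the ADU-S100 ratio was 0.482 (0.298 to 0.779). When at least 2 plasma cell markers were required, combination therapy stood 1.19 times above anti-LTβR, with an interval of 0.988 to 1.44 that includes equal shares.

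**Figure D1:**
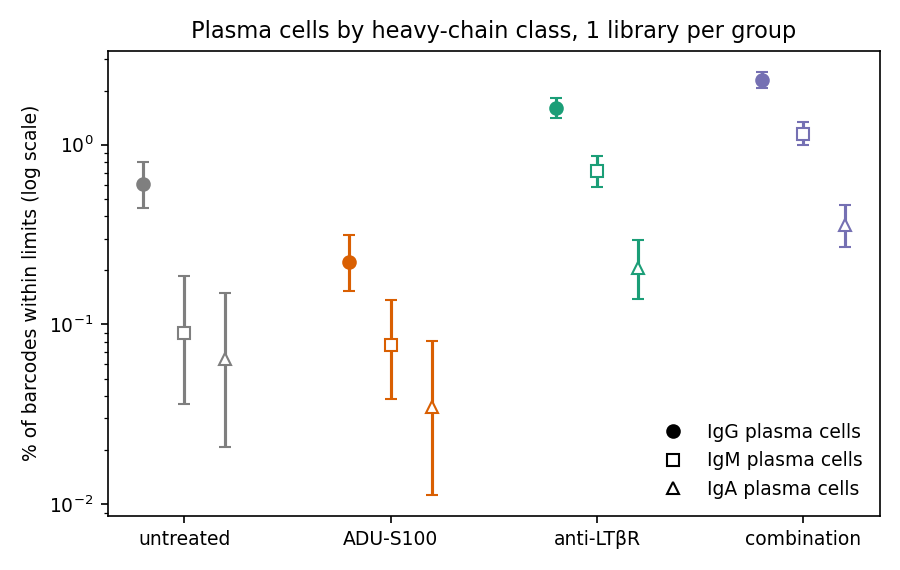
Share of barcodes within the limits (y axis, %, log scale) that were IgG (filled circles), IgM (open squares) and IgA (open triangles) plasma cells in each of the 4 libraries, with exact 95% binomial intervals as bars. IgG plasma cells ran from 0.223% after ADU-S100 to 2.29% after combination therapy, and IgM and IgA plasma cells were also highest after combination therapy.

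Other antibody classes were called by the same rule, with IgM and IgD as 1 class. The marker part of the rule can be met by some B cells, which express Mzb1. B cell genes such as Pax5 were higher in the IgM class than in IgG, as given below, and how many of the IgM barcodes were B cells was not tested. IgM plasma cells numbered 7, 11, 100 and 181, and IgA plasma cells 5, 5, 29 and 56 in the 4 libraries, while no IgE plasma cell was found. Compared with untreated, the IgM share of barcodes was 7.91 times as high after anti-LTβR (3.68 to 17.0) and 12.8 times after combination therapy (6.02 to 27.2), and the IgA share 3.21 times (1.24 to 8.30) and 5.55 times (2.22 to 13.8). After ADU-S100 alone, the IgM ratio was 0.853, with an interval of 0.331 to 2.20. Among all barcodes with a class, the IgM class as called included, IgG made up 79.7% in the untreated library (67.2% to 89.0%), 66.7% after ADU-S100 (51.6% to 79.6%), 63.6% after anti-LTβR (58.3% to 68.6%) and 60.3% after combination therapy. This share does not depend on how many myeloid cells a library held. The untreated interval overlapped those of the ADU-S100 and anti-LTβR libraries but not that of the combination library (56.3% to 64.3%). It overlapped that one too with at least 10 heavy-chain UMIs, with at least 2 markers, without plasma cells that held other-type genes and with thinning. When each barcode was thinned to 1000 UMIs, the shares were 81.4%, 86.7%, 72.0% and 63.5%, so the untreated and ADU-S100 libraries changed places.

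The members were then split by the IgG subclass gene with the most UMIs. Ighg1 led in 74.5% of untreated members (35 of 47, 59.7% to 86.1%), 65.6% after ADU-S100 (21 of 32, 46.8% to 81.4%), 47.6% after anti-LTβR (107 of 225, 40.9% to 54.3%) and 41.9% after combination therapy (151 of 360, 36.8% to 47.2%). Ighg2b led in 6.38%, 12.5%, 16.0% and 23.3% of members, and Ighg2c in 19.1%, 21.9%, 36.0% and 32.5%. Ighg3 led in no untreated or ADU-S100 member, which allows shares of up to 6.38% and 9.38%, in 1 anti-LTβR member and in 8 combination members. The Ighg1 part of the members was 0.639 times that of untreated after anti-LTβR (0.514 to 0.793) and 0.563 times after combination therapy (0.458 to 0.693). The Ighg2b part was 3.66 times that of untreated after combination therapy, with a wide interval of 1.20 to 11.1 because only 3 untreated members were Ighg2b. Without the most frequent variable gene pair of each library, as described below, the Ighg1 ratios were 0.780 (0.599 to 1.02) and 0.684 (0.530 to 0.882), and the Ighg2b ratio was 2.10 with an interval of 0.695 to 6.37 that includes equal parts. It was 2.90 (0.965 to 8.73) without the members that held genes of other cell types.

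**Figure D2:**
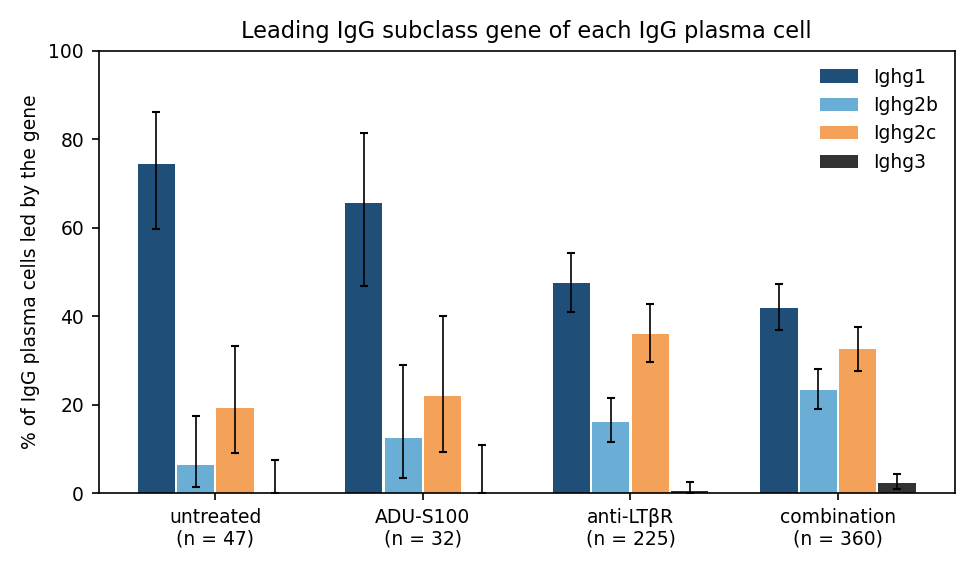
Percentage of IgG plasma cells (y axis) led by Ighg1, Ighg2b, Ighg2c or Ighg3 in each library, with exact 95% binomial intervals as bars and the number of members under each group. Ighg1 falls from 74.5% of the untreated members to 41.9% of the combination members, and Ighg2b goes from 6.38% to 23.3%.

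Counted against all barcodes instead of all members, Ighg1, Ighg2b and Ighg2c members were all more frequent after anti-LTβR than in untreated tumors. The share of barcodes led by Ighg1 was 1.69 times as high (1.16 to 2.48), that of Ighg2b 6.65 times (2.05 to 21.6) and that of Ighg2c 4.98 times (2.51 to 9.92). After combination therapy these ratios were 2.14 (1.48 to 3.08), 13.9 (4.39 to 43.9) and 6.44 (3.27 to 12.7). After ADU-S100 alone the Ighg1 ratio was 0.326 (0.19 to 0.559), while the intervals for Ighg2b (0.162 to 3.23) and Ighg2c (0.157 to 1.13) both included equal shares. Between the libraries with anti-LTβR, the Ighg2b part of the members was 1.46 times as large in combination (1.02 to 2.08). Without the most frequent gene pair of each library that ratio was 1.19 (0.778 to 1.83), with 55 of 305 against 26 of 172 members, and without the members that held other-type genes it was 1.39 (0.959 to 2.0). Both intervals include equal parts. For Ighg1 the ratio of 0.882 had an interval of 0.734 to 1.06.

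Nearly every member used 1 subclass. The leading gene gave a median of 99.87% of a member's IgG UMIs in the combination library and a higher median in the others, and a second subclass reached 10% in 0, 0, 3 and 3 members. Of those 6 members, 5 combined Ighg1 with Ighg2c and 1 combined Ighg2b with Ighg2c. IgG UMIs per member were also compared between subclasses. After anti-LTβR the medians were 2042 for Ighg1, 1600 for Ighg2b and 1987 for Ighg2c, and after combination therapy 999, 936 and 1018, with 560.5 in the 8 Ighg3 members. In the libraries with fewer members, the medians of Ighg1, Ighg2b and Ighg2c were 1650, 177 and 1928 in untreated, from 3 members for Ighg2b, and 2433, 2561 and 2070 after ADU-S100. Weighted by UMIs instead of members, Ighg1 made up 74.4%, 65.1%, 49.6% and 45% of IgG UMIs.

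Light chains were not part of the rule. A member was called kappa or lambda when it had at least 20 light-chain constant UMIs, at least 70% of them from 1 type. Lambda was called in 1 of 44 untreated members (2.27%, 0.0575% to 12%), in 0 of 29 after ADU-S100, which allows a share of up to 10.3%, in 32 of 220 after anti-LTβR (14.5%, 10.2% to 19.9%) and in 48 of 337 after combination therapy (14.2%, 10.7% to 18.4%). The lambda members were unevenly spread over subclasses. After combination therapy they were 6 of 8 Ighg3, 22 of 108 Ighg2c, 17 of 145 Ighg1 and 3 of 76 Ighg2b members, and after anti-LTβR 21 of 105 Ighg1, 9 of 78 Ighg2c and 2 of 36 Ighg2b members. With each heavy and light variable gene pair, as described next, counted once, lambda was 4.92% after anti-LTβR and 6.02% after combination therapy.

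The variable genes of the members were read as a measure of how varied the antibodies were. A variable gene was called when it had at least 5 UMIs and at least 70% of the heavy or light variable UMIs of the member. The files hold no junction sequences, so a shared gene pair does not show a shared clone, and variable genes of similar sequence may divide reads between them. Both genes were called in 45, 31, 205 and 324 members. These members used 22, 16, 61 and 84 different pairs, and 66.7%, 67.7%, 85.4% and 85.8% of them had a pair that at least 1 other member of the same library also had. For 31 members drawn from each library, the expected number of different pairs was 17.1, 16.0, 18.1 and 19.3. Repeated pairs were thus common in every library, and at an equal number of members the libraries differed by few pairs. Since members with the same pair may descend from 1 cell, the intervals above, which treat members as independent, may be too narrow.

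The leading heavy-chain gene was not the same in every library. Ighv14-2 led in the untreated library, in 18 of 45 members (40.0%, 25.7% to 55.7%), and in the ADU-S100 library, in 6 of 32 (18.8%). Ighv3-6 led after anti-LTβR, in 59 of 216 members (27.3%), and Ighv1-39 after combination therapy, in 60 of 332 (18.1%). The inverse Simpson index, which gives the number of equally used genes with the same evenness, was 5.05, 9.14, 8.29 and 14.3 for heavy-chain genes and 7.59, 8.82, 8.49 and 13.6 for light-chain genes. The index was highest in the combination library for both chains, but it was computed over different numbers of members. For 32 members with a heavy gene drawn from each library, the expected number of different genes was 12, 15, 14.7 and 16.9, and for 31 with a light gene 14.3, 13.0, 14.1 and 16.3, with smaller gaps between the libraries. The Ighv1 family was called in 56.9% of combination members and in 26.7% to 33.8% of those in the other libraries.

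A few pairs held many members. After anti-LTβR, Ighv3-6 with Igkv12-44 was found in 53 of 205 members (25.9%, 20% to 32.4%), of which 15 were Ighg1, 10 Ighg2b and 28 Ighg2c. In the combination library the same pair had 12 members, 11 of them Ighg1. Ighv1-39 with Igkv8-30 was the most frequent pair of the combination library, with 55 of 324 members (17.0%, 13.1% to 21.5%), and it had 2 members after anti-LTβR and none in the untreated or ADU-S100 library. Its 55 members were 8 Ighg1, 29 Ighg2b and 18 Ighg2c, so this pair supplied 29 of the 84 Ighg2b members of the library. Ighv8-8 with the lambda gene Iglv1 had 27 members after anti-LTβR and 38 after combination therapy. By contrast, the 16 members with Ighv1-31 and Igkv3-4 in the combination library were all Ighg1. Pairs carried by more than 1 subclass numbered 3, 1, 9 and 9 in the 4 libraries.

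**Figure D3:**
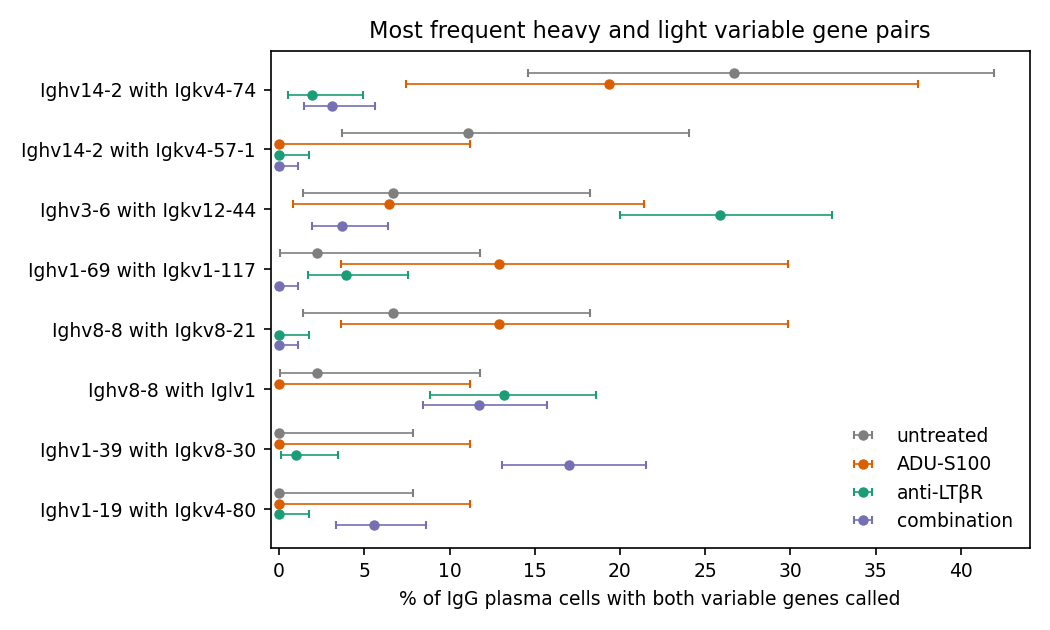
Percentage of IgG plasma cells with both variable genes called (x axis) that had each of 8 frequent heavy and light variable gene pairs (y axis), by library, with exact 95% binomial intervals as bars. Ighv14-2 with Igkv4-74 is highest in the untreated library at 26.7%, Ighv3-6 with Igkv12-44 after anti-LTβR at 25.9% and Ighv1-39 with Igkv8-30 after combination therapy at 17.0%.

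Over all 4 libraries, 148 pairs with 325 members were seen in 1 library, 9 pairs in 2 libraries, 3 pairs in 3 libraries and 2 pairs in all 4. The pairs in all 4 were Ighv14-2 with Igkv4-74, with 12, 6, 4 and 10 members, and Ighv3-6 with Igkv12-44, with 3, 2, 53 and 12 members. When members with the same pair and subclass were counted once, Ighg1 made up 7 of 17 such combinations after ADU-S100 (41.2%), and Ighg2c 21 of 74 after anti-LTβR (28.4%) and 26 of 96 after combination therapy (27.1%).

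Outside the immunoglobulin genes, the members of every library shared a small set of abundant transcripts. Slpi, which encodes the secretory leukocyte protease inhibitor, gave the most UMIs of the genes ranked, at 76079, 75727, 74858 and 78839 CPM. The ranking left out immunoglobulin, mitochondrial, ribosomal, predicted, T cell receptor and sex-linked genes and markers of other cell types. Malat1 and Cdk8 also ranked above Jchain in every library. Jchain, the joining chain of polymeric antibodies, stood at 12319, 17379, 16954 and 13242 CPM, and Il31ra, a cytokine receptor chain, at 8960, 8086, 7589 and 7683 CPM. Hsp90b1, the endoplasmic reticulum chaperone GRP94, stood at 7262 to 9691 CPM. UMIs here count molecules from their 5′ ends, so levels of different genes were not divided by length.

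Of 10 plasma cell transcription factors none was at least 2-fold lower in any comparison between libraries, and 1, Ikzf3 (Aiolos), was higher in the comparisons of anti-LTβR with untreated and of combination therapy with ADU-S100. Over all genes, 1.66% and 5.77% were higher in those comparisons, and 0.377% to 5.89% were lower in the 5 comparisons. Ikzf3 stood at 76.2 CPM in untreated, 55.7 after ADU-S100, 185 after anti-LTβR and 136 after combination therapy. Its log2 ratios were 1.26 for both comparisons, and 1.21 and 0.96 without members that held RNA of other cell types, as described next. Xbp1, which drives the secretory program, had 2166, 2604, 2870 and 2618 CPM, and Prdm1, which encodes Blimp-1, had 455, 530, 489 and 369 CPM. Irf4, a factor needed by plasma cells, was at 928 CPM in untreated, 495 after ADU-S100, 823 after anti-LTβR and 718 after combination therapy. Its ADU-S100 ratio to untreated was −0.90 on the log2 scale (−1.18 to −0.64), and it was −1.21 without those members.

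Some members also held RNA of other cell types. Members with UMIs of at least 2 defining genes of T cells, of macrophages and monocytes or of neutrophils numbered 11 of 47, 6 of 32, 36 of 225 and 54 of 360. The 10 macrophage and monocyte markers, which were all detected in the members of every library, summed to 2644 CPM in untreated, 630 after ADU-S100, 1901 after anti-LTβR and 2948 after combination therapy, against 10341 to 13062 CPM in all other barcodes. The 7 neutrophil markers summed to 231, 1233, 291 and 326 CPM, with Retnlg at 0 in the untreated and anti-LTβR members, and the 10 T cell markers to 65.7, 29.3, 60.7 and 123 CPM. The 6 NK cell markers were at 0 in the untreated and ADU-S100 members, and the 5 red blood cell markers at 0 in all. Without the members that held other-type genes, the macrophage and monocyte sums were 133, 78.6, 363 and 386 CPM and the neutrophil sums 235, 30.8, 44.4 and 85.3 CPM. The comparisons between treatments were therefore repeated in the remaining members.

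In the comparison of ADU-S100 with untreated, 2667 genes had enough UMIs, and 2.92% of them were at least 2-fold higher and 5.89% at least 2-fold lower. The 157 lower genes became 60 of 1915 without the members with other-type genes and 286 of 2805 with immunoglobulin genes in the total, and the 78 higher genes became 134 with each member counting once. Ly6a, which encodes the surface protein Sca-1 and responds to interferon, stood at 1435 CPM in untreated, 4030 after ADU-S100, 1665 after anti-LTβR and 1536 after combination therapy. Only the ADU-S100 level stood apart, at a log2 ratio to untreated of 1.49 (1.35 to 1.64). Without the members with other-type genes the 4 Ly6a levels were 1006, 3844, 1823 and 1582 CPM. Il10, an anti-inflammatory cytokine that plasma cells can secrete, had 105, 483, 167 and 178 CPM, a log2 ratio of 2.19 (1.70 to 2.74) for ADU-S100, and 66.5, 482, 173 and 198 CPM in the remaining members. The phosphatase genes Dusp4, at 97.3, 460, 173 and 143 CPM, and Dusp5, at 60.5, 252, 164 and 157 CPM, were also highest after ADU-S100. Abtb2 had 47.3, 202, 66.6 and 116 CPM. Its log2 ratio of 2.07 for ADU-S100 was 0.92 without the members of the most frequent gene pair in each library.

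Of 14 interferon-stimulated genes with enough UMIs, 4 were at least 2-fold higher after ADU-S100 than in untreated, against 2.92% of all genes, and none was lower, with a list median log2 ratio of 0.39 against −0.06 over all genes. Isg15, a ubiquitin-like modifier, had 63.1 CPM in untreated, 249 after ADU-S100, 69.0 after anti-LTβR and 79.1 after combination therapy, and 27.4, 191, 21.5 and 45.6 CPM without the members with other-type genes. The interferon-induced GTPase gene Gbp7 had a log2 ratio of 1.52 (0.85 to 2.26) and Gbp3 of 1.02 (0.19 to 1.93). Gbp2, another of them, stood at 71.0, 182, 89.2 and 58.8 CPM, and at 50.9, 95.7, 58.5 and 37.1 CPM in the remaining members, where the excess after ADU-S100 was smaller. Of 5 cytokine and ligand genes, 3 were higher, and 2 of these, Ccl4 and Ccl5, rested on the members with other-type genes. Ccl4 had 217 CPM after ADU-S100 with all members and 10.2 CPM without them, and Ccl5 had 135 CPM and then no UMI.

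**Figure D4:**
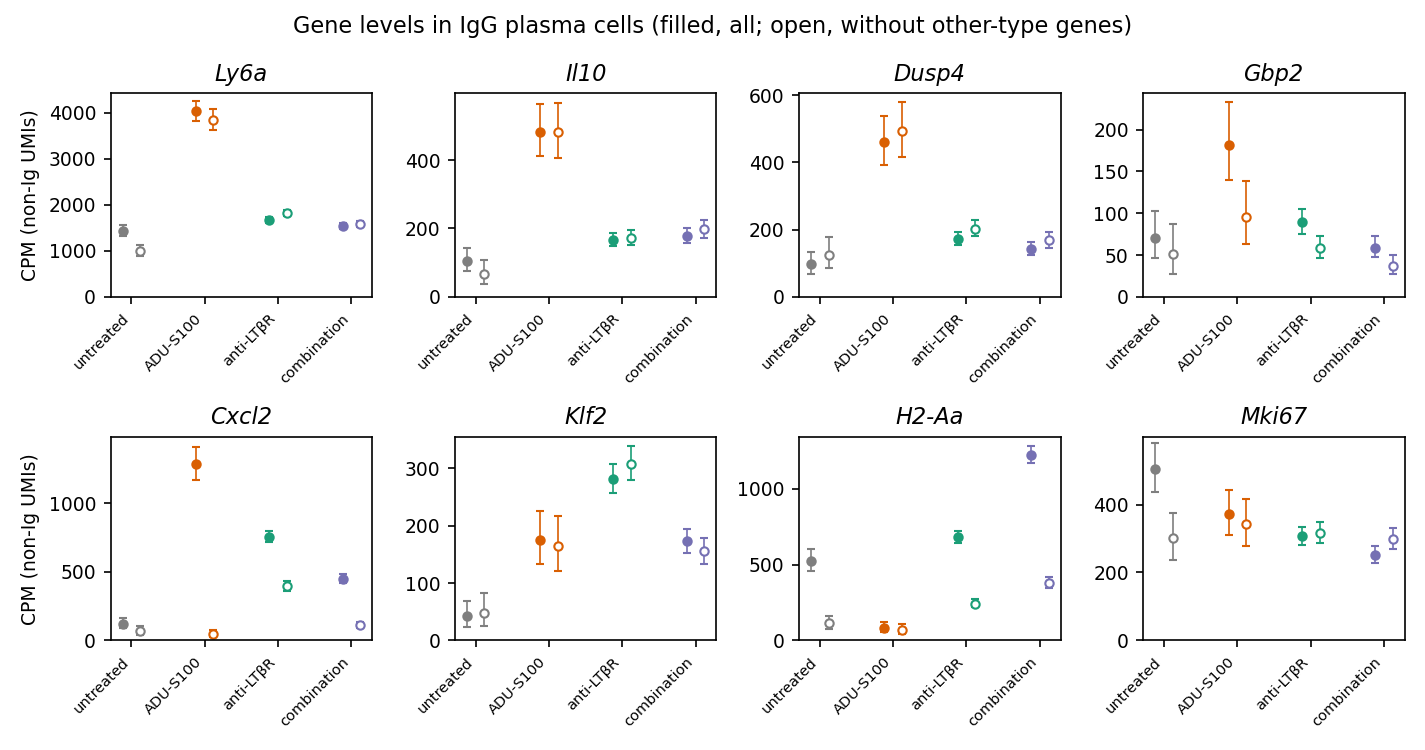
Levels of 8 genes in the summed IgG plasma cells of each library (y axis, CPM of non-immunoglobulin UMIs) with all members (filled) and without members holding UMIs of at least 2 genes of another cell type (open), with exact 95% intervals of the count as bars. Ly6a, Il10 and Dusp4 are highest after ADU-S100 with and without those members, whereas Cxcl2 after ADU-S100 goes from 1286 to 44.4 CPM when they are left out.

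Of 4 MHC class II genes with enough UMIs, 3 were at least 2-fold lower after ADU-S100, against 5.89% of all genes, namely H2-Aa at a log2 ratio of −2.61, H2-Eb1 at −1.86 and H2-Ab1 at −1.18, and the list median was −1.52. The fourth, Cd74, which encodes the invariant chain, was higher at 7465 CPM against 4886 CPM (log2 ratio 0.61, 0.52 to 0.70). Macrophage and monocyte markers were also lower in these members, and without the members with other-type genes the list median was −0.14. Among the 5 falls named outside the lists by the rule for single genes, Pip4k2a, a lipid kinase gene, and Scd2, a fatty acid desaturase gene, had log2 ratios of −2.07 (−4.24 to −0.56) and −1.78 (−3.20 to −0.65) without those members. For the other 3, which had log2 ratios of −3.41 (Slc8a1, a sodium-calcium exchanger gene), −2.08 (Ptprj, a phosphatase gene) and −1.79 (Ctsc, a lysosomal protease gene) with all members, too few UMIs remained to give a direction. There were 1 against 1 UMI for Slc8a1, 9 against 12 for Ptprj and 9 against 6 for Ctsc, and each interval included both equal levels and a 2-fold fall. Of all genes, 2.92% were at least 2-fold higher, which is the share to hold beside the counts that follow. Of 36 secretory pathway genes, 1 was at least 2-fold higher and none was lower, with a median of 0.15. That gene was Txndc5, a disulfide isomerase gene, at 215, 609, 453 and 353 CPM. Of 10 plasma cell transcription factors none passed 2-fold in either direction. Of 2 B cell transcription factors with enough UMIs, Irf8, an interferon regulatory factor gene, was higher, at 164 CPM against 36.8 CPM in untreated (log2 ratio 2.12, 1.29 to 3.12). Without the members with other-type genes Irf8 stood at 11.7, 178, 43.0 and 44.7 CPM in the 4 libraries.

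In the comparison of anti-LTβR with untreated, 3077 genes had enough UMIs, and 1.66% were at least 2-fold higher and 0.812% at least 2-fold lower. The 25 lower genes became 7 of 1986 without the members with other-type genes, and with each member counting once there were 90 higher and 61 lower. Klf2, a transcription factor gene linked to lymphocyte trafficking, stood at 42.1 CPM in untreated, 176 after ADU-S100, 281 after anti-LTβR and 173 after combination therapy, all above untreated. The log2 ratio for anti-LTβR was 2.70 (2.03 to 3.56), and 2.66 without the members with other-type genes. The neutrophil-attracting chemokine gene Cxcl2 had 121, 1286, 755 and 450 CPM, and 66.5, 44.4, 395 and 111 CPM in the remaining members. S100a4, a calcium-binding protein gene, had 23.7, 14.6, 110 and 112 CPM, a log2 ratio of 2.14 (1.26 to 3.37). In untreated, 1 member held 77.8% of its 9 UMIs. Without the members with other-type genes S100a4 stood at 3.91, 3.42, 39.3 and 46.4 CPM, with 1 UMI each in untreated and ADU-S100. The lower level of Zeb2 after anti-LTβR (494 CPM in untreated and 223 CPM) was not seen without the members with other-type genes, where 98 against 15 UMIs gave a log2 ratio of 0.27 (−0.49 to 1.20).

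Few genes of the lists passed 2-fold after anti-LTβR, where 1.66% of all genes were higher and 0.812% lower. The 36 secretory pathway genes had a median log2 ratio of 0.19, with 1 at least 2-fold higher and none lower. The 13 genes that build the glycan of IgG had a median of 0.45, against 0.02 over all genes, and none reached 2-fold. Among them, St6gal1, the sialyltransferase gene, stood at 255, 346, 441 and 325 CPM, and Fut8, the core fucosyltransferase gene, at 849, 533, 1095 and 922 CPM. Of 15 interferon-stimulated genes, 1 was higher and 1 lower. The 8 cell cycle genes had a median of −0.64, which became 0.35 without the members with other-type genes.

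In the comparison of combination therapy with untreated, 3100 genes had enough UMIs, and 1.84% were at least 2-fold higher and 0.677% at least 2-fold lower. The 21 lower genes became 5 of 2008 without the members with other-type genes, and with each member counting once there were 92 higher and 42 lower. Klf2 had a log2 ratio of 2.0 (1.31 to 2.87), and 1.67 in the members without other-type genes. S100a4 had a log2 ratio of 2.18 (1.29 to 3.40). Cxcl2 had a log2 ratio of 1.88, which became 0.71 in the remaining members. Ptpn12, a tyrosine phosphatase gene, was lower at −1.60 (−2.18 to −1.02), and at −2.06 in the remaining members. Mki67, a gene of dividing cells, stood at 505, 372, 306 and 252 CPM, the lowest after combination therapy, but at 301, 342, 316 and 299 CPM without the members with other-type genes. Of 7 cell cycle genes 3 were at least 2-fold lower with all members, and the list median went from −0.76 to 0.31 without those members. Of 6 MHC class II genes 3 were at least 2-fold higher, with a median of 0.85 that was 0.89 without the members with other-type genes. In the remaining members the macrophage and monocyte markers were also higher, at 386 CPM after combination therapy against 133 CPM in untreated. Whether such RNA carried the MHC class II difference was not tested. None of the 36 secretory pathway genes passed 2-fold.

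In the comparison of combination therapy with ADU-S100, 2754 genes had enough UMIs, and 5.77% were at least 2-fold higher and 1.13% at least 2-fold lower. The 159 higher and 31 lower genes became 82 and 19 of 2289 without the members with other-type genes, and 60 were lower with each member counting once. The genes that were high after ADU-S100 were lower here, with log2 ratios of −1.69 for Dusp4, −1.44 for Il10, −1.39 for Ly6a, −1.63 for Gbp2 and −1.14 for Cd52, which encodes a small surface glycoprotein of lymphocytes. The ADU-S100 members enter both this comparison and the comparison with untreated, so the reversal is not a second observation. Of 15 interferon-stimulated genes 5 were lower and none higher, and of 5 MHC class II genes 4 were higher. H2-Aa stood at 526, 84.9, 685 and 1224 CPM with all members, and at 114, 68.3, 243 and 381 CPM without those with other-type genes, where the list median of 2.22 became 1.02. There the macrophage and monocyte markers were also higher, at 386 CPM after combination therapy against 78.6 CPM after ADU-S100. Whether such RNA carried the remaining MHC class II difference was not tested.

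Combination therapy and anti-LTβR, the libraries with the most members, were compared over the most genes. Of 7424 genes with enough UMIs, 0.943% were at least 2-fold higher and 0.377% at least 2-fold lower after combination therapy. The 70 higher and 28 lower genes became 153 and 86 with each member counting once, and 49 were lower without the most frequent gene pair. Slc7a2, a cationic amino acid transporter gene, had 16.7 CPM after anti-LTβR and 85.6 CPM after combination therapy, a log2 ratio of 2.34 (1.77 to 3.01). Hspa1a, an inducible heat shock protein gene, had 4.16 and 28.8 CPM, and Fgf13 6.54 and 34.7 CPM. Without the members with other-type genes, Slc7a2 stood at 2.96 and 18.6 CPM, Hspa1a at 0.741 and 13.5 CPM and Fgf13 at 2.22 and 25.3 CPM. The anti-LTβR levels of these genes then rested on very few UMIs. The monocyte chemokine genes Ccl2 (log2 ratio −1.82) and Ccl7 (−1.97) and the interferon-induced GTPase gene Gbp4 (−1.33) were lower. Of 23 cell cycle genes 1 was lower, with a median of −0.29. None of the 10 plasma cell transcription factors, 36 secretory pathway genes or 13 glycan genes passed 2-fold.

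The IgG plasma cells were next compared with the barcodes called IgM plasma cells in the same library and thus of the same treatment. The IgM class may include B cells, as said above, so the differences may not be between classes of plasma cell alone. In the anti-LTβR library 4763 genes had enough UMIs, 3.0% at least 2-fold higher and 7.68% at least 2-fold lower in IgG. In the combination library, of 5310 genes, 1.30% were at least 2-fold higher and 3.58% at least 2-fold lower. Of the genes that could be named, Slpi had the highest lower bound in both libraries. It stood at 74858 CPM in IgG and 1178 CPM in IgM plasma cells after anti-LTβR, a log2 ratio of 5.99 (5.89 to 6.10), and at 78839 and 1577 CPM after combination therapy, a log2 ratio of 5.64 (5.56 to 5.73). In the smaller untreated and ADU-S100 libraries it stood at 76079 against 5098 CPM and at 75727 against 11437 CPM, so the direction was the same in 4 of 4 libraries. Without the plasma cells that held other-type genes the log2 ratios were 5.74 and 5.38.

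Slpi was spread over the members. A Slpi UMI was found in every IgG plasma cell of the untreated and ADU-S100 libraries and in 98.2% after anti-LTβR and 96.9% after combination therapy, with medians of 308, 523, 304 and 146 UMIs in the 4 libraries. It was found in 57.1%, 54.5%, 38.0% and 36.5% of IgM plasma cells and in 7.48%, 17.9%, 17.1% and 20.1% of T cell barcodes. Median total UMIs in the anti-LTβR library were 12514 for IgG and 7554 for IgM plasma cells and 3457 for T cell barcodes, so these shares compare unequal depths, whereas the CPM do not. IgA plasma cells lay between, at 43688, 11974, 5592 and 8434 CPM.

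B cell genes set the barcodes called IgM plasma cells apart from the IgG members, and how many of these barcodes were B cells was not tested. Pax5, the factor that maintains B cell identity, had 0 UMIs in the IgG and 232 UMIs in the IgM plasma cells of the anti-LTβR library, and 5 and 73 UMIs in the combination library. Sox5, another transcription factor gene, had 17.8 and 841 CPM after anti-LTβR and 38.6 and 251 CPM after combination therapy. Blk, a kinase gene of B cell receptor signaling, had 2.38 and 194 CPM, and 4.58 and 87.2 CPM. The receptor gene Fcrl5 (3.57 and 249 CPM after anti-LTβR), the follicle homing receptor gene Cxcr5 (1.19 and 114 CPM) and the interleukin-5 receptor gene Il5ra (29.1 and 263 CPM, and 36.0 and 345 CPM) were also lower in IgG. Of 5 B cell transcription factors 4 were at least 2-fold lower in IgG after anti-LTβR and 3 after combination therapy, and of B cell surface genes 6 of 7 and 3 of 5, against 7.68% and 3.58% of all genes.

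Higher in IgG than in IgM plasma cells was Cxcr3, the receptor for interferon-induced chemokines, at 77.3 against 6.27 CPM after anti-LTβR (log2 ratio 3.46, 2.23 to 5.52) and at 56.9 against 1.32 CPM, a single UMI, after combination therapy. Vpreb3, a gene for a protein that binds immunoglobulin chains in the endoplasmic reticulum, had 125 UMIs in IgG and 0 UMIs in IgM plasma cells after anti-LTβR, and 45.8 against 15.9 CPM after combination therapy. Neil1, a DNA repair glycosylase gene, had 215 against 33.0 CPM after combination therapy. Of 8 plasma cell maturity genes 4 were at least 2-fold higher after anti-LTβR, namely Cd28, Cd93, Epcam and Ly6c2 at log2 ratios of 1.59, 1.79, 1.40 and 1.34, while after combination therapy 1 of 8 was. That was Epcam, at 1.56. Of all genes, 3.0% and 1.30% were higher in these comparisons. Of MHC class II genes 7 of 8 were lower in IgG after anti-LTβR and 2 of 8 after combination therapy, against 7.68% and 3.58% of all genes. The secretory pathway genes had medians of 0.38 and −0.02, and Txndc5 was lower in IgG in both libraries, at 453 against 1520 CPM and 353 against 1689 CPM.

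**Figure D5:**
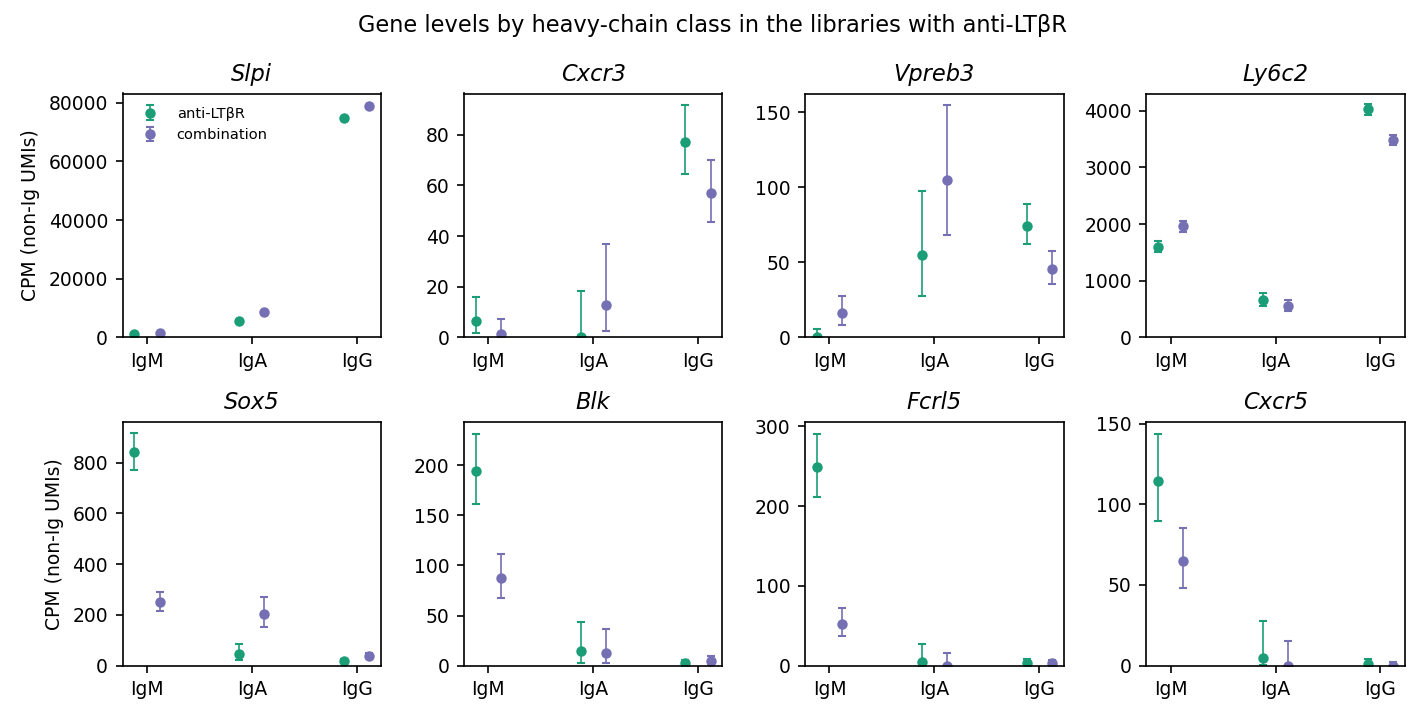
Levels of 8 genes (y axis, CPM of non-immunoglobulin UMIs) in IgM, IgA and IgG plasma cells of the anti-LTβR (green) and combination (purple) libraries, with exact 95% intervals of the count as bars. Slpi is at 74858 and 78839 CPM in IgG against 1178 and 1577 CPM in IgM plasma cells, and Sox5, Blk, Fcrl5 and Cxcr5 are lower in IgG than in IgM plasma cells in both libraries. The IgM class, as called by the rule, may include B cells.

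IgA plasma cells reached 30 only in the combination library, with 56, of which 22 held genes of other cell types against 54 of the 360 IgG members. There 2014 genes had enough UMIs, 3.72% at least 2-fold higher and 7.50% at least 2-fold lower in IgG than in IgA. Slpi was higher in IgG at a log2 ratio of 3.22 (3.16 to 3.29), Ly6c2, a surface protein gene, had 3488 against 558 CPM, Il10 178 against 25.2 CPM and the cyclin gene Ccnd2 943 against 277 CPM. Jchain was lower in IgG, at 13242 against 56101 CPM, and so was Txndc5 at 353 against 1985 CPM. In the 306 IgG and 34 IgA plasma cells without other-type genes these directions held, with Slpi at 2.58, Ly6c2 at 2.03, Il10 at 2.60 (from 3 UMIs in IgA), Ccnd2 at 1.39 and Txndc5 at −3.08 on the log2 scale and Jchain at 15041 against 98982 CPM. The cytoskeletal genes Fmnl2 (34.7 against 478 CPM) and Myo1e (144 against 915 CPM) were lower in IgG with all cells, but 9 against 0 UMIs and 62 against 2 UMIs remained in the others, too few to give a direction. There 29 of 727 genes were higher in IgG and 15 lower.

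The subclasses were compared with Ighg1 members of the same library. After anti-LTβR, of 2315 genes 0.950% were at least 2-fold higher and 1.64% at least 2-fold lower in Ighg2b members, and of 4175 genes 1.08% were higher and 2.87% lower in Ighg2c members. After combination therapy, 1.13% of 2919 genes were higher and 0.891% lower in Ighg2b members, and 1.90% of 3885 genes were higher and 0.695% lower in Ighg2c members. Members with other-type genes were unevenly spread after anti-LTβR, where 81 of 107 Ighg1, 33 of 36 Ighg2b and 74 of 81 Ighg2c members were left without them. Among those, 14 of 2022 genes were lower in Ighg2b and 57 of 3479 in Ighg2c members, against 38 and 120 with all members. Higher were 31 and 51, against 22 and 45, so in Ighg2b members more genes were then higher than lower. After combination therapy, without such members, 36 of 2291 genes were higher and 13 lower in Ighg2b members, against 33 and 26. In Ighg2c members 43 of 2866 were higher and 16 lower, against 74 and 27. Without the most frequent gene pair 59 of 1656 genes were lower in Ighg2b members after anti-LTβR. Ly6a differed in 1 direction throughout. It had 989 CPM in Ighg1, 2186 CPM in Ighg2b and 2406 CPM in Ighg2c members after anti-LTβR, and 936, 1822 and 2109 CPM after combination therapy, so the Ighg1 members were lowest in both libraries. The log2 ratios to Ighg1 were 1.15 and 1.28 after anti-LTβR and 0.96 and 1.17 after combination therapy. The Ighg1 members were also lowest in both libraries without the most frequent gene pair of each library, at 948 and 820 CPM, and without the members with other-type genes, at 1073 and 900 CPM.

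Other subclass differences held in both libraries for some genes and not for others. Cd28, a costimulatory receptor gene that supports long-lived plasma cells, had 44.7 CPM in Ighg1 and 155 CPM in Ighg2c members after anti-LTβR (log2 ratio 1.78, 1.22 to 2.39), but 50 and 44.9 CPM after combination therapy. Il10 had 75.8 CPM in Ighg1, 273 CPM in Ighg2b and 219 CPM in Ighg2c members after combination therapy, and 162, 146 and 121 CPM after anti-LTβR. The chaperone gene Hsp90b1 was lower in Ighg2b (5487 CPM) and Ighg2c members (5623 CPM) than in Ighg1 members (9447 CPM) after combination therapy, at log2 ratios of −0.78 and −0.75. After anti-LTβR it had 10442, 9771 and 8273 CPM in Ighg1, Ighg2b and Ighg2c members, but 10709, 11369 and 8684 CPM without the most frequent gene pair, so that Ighg1 was then not the highest. Hspa5, which encodes the chaperone BiP, had 3978, 2045 and 2715 CPM in Ighg1, Ighg2b and Ighg2c members after combination therapy, and 3764, 2845 and 2159 CPM after anti-LTβR, with Ighg1 highest in both, also without that pair and without the members with other-type genes. Il31ra was lower in Ighg2b than in Ighg1 members after anti-LTβR (4718 and 9773 CPM) and higher after combination therapy (9766 and 7994 CPM). These Il31ra levels were 4702 and 6971 CPM after anti-LTβR without the members with other-type genes, less than a 2-fold difference, and 8769 and 8078 CPM after combination therapy without the most frequent pair. Of the 84 Ighg2b members of the combination library, 29 shared the pair Ighv1-39 with Igkv8-30, which 8 Ighg1 and 18 Ighg2c members also had. Without that pair Il10 was at 80.7, 284 and 243 CPM in Ighg1, Ighg2b and Ighg2c members.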

How the data were processed

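CD45+ tumor cells were profiled as single cells in 4 libraries, 1 per group, with the groups taken from the labels. The deposited matrices hold whole UMI counts per gene and barcode (33696 features) and were not normalized by the authors. The labels name Cell Ranger 7.1.0 and mm10, the file headers Cell Ranger 8.0.1; the labels and the methods of the study name different 5′ kits, and the files list features absent from GENCODE M21. Barcodes were kept with 300 to 5000 genes and at most 6% mitochondrial UMIs, the limits of the study. Doublets were not removed in the main values; alternatives without members holding genes of other types, and without the barcodes of highest Scrublet score (scanpy 1.11.5), were run. Members, gene lists and comparisons were chosen with earlier results of these data known.

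For shares the exact Clopper-Pearson 95% interval was computed and for their ratios a log-normal interval, and a count of 0 allows up to 3 counts of the total. A class needed 20 heavy-chain UMIs and 70% from the class. UMIs of each gene were summed over the members of a library and divided by the summed non-immunoglobulin UMIs (380472, 341438, 1681514 and 1529644), which left out 390 immunoglobulin features but kept Jchain. Log2 ratios had 0.5 UMI added to each sum and exact binomial intervals. A gene was compared when the summed UMIs times the smaller library's part of the total reached 20, and it was counted from a 2-fold ratio on. IgG was compared with IgM or IgA where both had 30 members. Comparisons between subclasses were not planned and used the same method. The genes named were the selecting markers, genes of the 18 lists and, per comparison, the 5 rises and 5 falls with the bound nearest 0 largest, leaving out immunoglobulin, T cell receptor, mitochondrial, ribosomal, predicted and sex-linked genes, markers of other types and genes with over 25% of UMIs in 1 member of the higher library. Values of a gene in comparisons other than its own, such as Hspa5 after anti-LTβR, were added after they were seen. Some genes that met the rule are not reported here. No p-value was computed, because pooled libraries without replicates give none. Of the steps, the log2 ratios and their intervals were tested on simulated counts. Python 3.11.15, numpy 2.4.6, scipy 1.17.1 and pandas 2.3.3 were used.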

Additional observations from a re-analysis of the deposited data

Results flagged for a closer look

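The share of IgG plasma cells moved in opposite ways with ADU-S100 depending on whether anti-LTβR was given. Without anti-LTβR, the share after ADU-S100 was 0.370 times that of untreated tumors (0.236 to 0.579, 32 against 47 members). With anti-LTβR, the share after combination therapy was 1.43 times that after anti-LTβR alone (1.21 to 1.69, 360 against 225 members). When at least 2 plasma cell markers were required, the latter ratio was 1.19, with an interval of 0.988 to 1.44 that includes equal shares. With 1 library in each group the difference between these effects was not tested.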

How the results depend on the processing

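With 1 library per group, no interval covers the spread between mice, and differences between libraries cannot be told apart from differences between treatments. No paired analysis was possible because each group had 1 library and the labels give no replicate numbers. The untreated and ADU-S100 members were few, which limits what those comparisons can show. The cause of each change listed here was not tested unless fewer genes or members were used by construction. Counting gene pairs once, leaving out the largest pair, and leaving cells with other-type genes out of the comparisons between classes and subclasses were chosen after seeing the data.

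Of 65 values of the IgG share ratios under alternatives, 64 stayed within the interval of the value reported, and the exception was 1.19 for combination therapy against anti-LTβR with at least 2 markers. Against untreated, ADU-S100 gave ratios between 0.345 and 0.482, anti-LTβR between 2.35 and 3.01 and combination therapy between 3.38 and 4.54. The IgG part of all classes after anti-LTβR was 70.4% with at least 50 heavy-chain UMIs, 68.8% with at least 2 markers and 72.0% with thinning to 1000 UMIs, which gave 86.7% after ADU-S100. With each gene pair and subclass counted once, Ighg1 was 41.2% after ADU-S100 and Ighg2c 28.4% and 27.1% after anti-LTβR and combination therapy. With each gene pair counted once, lambda was 4.92% and 6.02% in those libraries. Without the largest pair, Ighg2b was 18.0% of combination members. With variable genes called from 2 UMIs and 50%, the 8 shares of the leading gene stayed within their intervals, and the 8 inverse Simpson indices, which have none, within 1.5 times their value.

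The counts of genes at least 2-fold higher or lower depended on the filter on low counts. With an expected 5 UMIs they were 302 and 937 for ADU-S100, 305 and 246 for anti-LTβR and 370 and 220 for combination therapy against untreated, 866 and 150 for combination therapy against ADU-S100, and 391 and 231 against anti-LTβR. With only 1 UMI required they were 1754 and 3278, 1267 and 2051, 1325 and 1906, 2360 and 1515, and 2134 and 1923 in that order. With each member counting once, ADU-S100 had 134 higher, anti-LTβR 90 and 61 and combination therapy 92 and 42 against untreated, combination therapy had 60 lower against ADU-S100 and 153 and 86 against anti-LTβR, and IgG had 98 lower than IgA. Without members holding other-type genes, 60, 7 and 5 genes were lower than untreated after ADU-S100, anti-LTβR and combination therapy, combination therapy had 82 higher and 19 lower against ADU-S100, and IgG had 29 higher and 15 lower than IgA. Immunoglobulin genes in the total gave 286 lower for ADU-S100, and leaving out the largest pair 49 lower for combination therapy against anti-LTβR.

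Of 475 list medians, 463 moved by less than 1.5-fold, some medians near 0 that changed sign included. Without members holding other-type genes, those for ADU-S100 against untreated were −0.029 for the integrated stress response (from 0.53), 0.94 for cell cycle (from −0.26), −0.14 for MHC class II and −0.034 for class switching, those for anti-LTβR 0.35 for cell cycle (from −0.64) and 1.34 for cytokines, that for combination therapy 0.31 for cell cycle (from −0.76), and those for combination therapy against ADU-S100 1.02 for MHC class II and −0.26 for class switching (from 0.33). The cell cycle median was 0.38 for ADU-S100 with each member counting once, and without the largest pair 0.14 for anti-LTβR, both with a change of sign, and −0.12 for combination therapy. Of 336 values of named genes 313 held, 16 no longer reached 2-fold, 2 newly did and 5 changed sign without members holding other-type genes. Of these, Ctsc (0.35), Zeb2 (0.27) and, against IgA, Fmnl2 (0.78, from 9 against 0 UMIs) and Myo1e (1.18, from 62 against 2 UMIs) had intervals that included equal levels, and Slc8a1 against IgA (2.05, 0.48 to 5.43) rested on 2 IgA UMIs.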
